A study of Homo sapiens with 9 samples.

Results

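The genes described here are 42 components of DNA replication and S phase, among 13391 named genes measured on the same arrays. They were chosen by name, with earlier results of these data known, and matched through current and earlier platform gene symbols. They fall into 6 groups by role. These are the replicative helicase (MCM2 to MCM7), origin licensing and firing (ORC1, ORC6, CDC6, CDT1, CDC7, MCM10 and CDC45), the GINS complex (GINS1 to GINS4), the polymerases, clamp and fork enzymes (16 genes), nucleotide supply (RRM1, RRM2, TYMS and TK1), and checkpoint, chromatin and histone supply (CLSPN, CHAF1A, CHAF1B, SLBP and UHRF1). All 42 had a probe, and all 42 were detected on each of the 9 arrays, so no member was lost to the filter on dim probes.

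The study asked how methylation of a miRNA alters what it does in cells. Total RNA came from RKO cells, a human colorectal cancer line, whose DICER gene carries a disruption of exon 5. DICER cuts precursor RNAs into mature miRNAs, and all groups, the control included, share this disruption. The labels do not say whether the cells are 1 clone or a pool. RNA was taken 48 h after lipofection with double-stranded RNA oligonucleotides. The 9 arrays held 1 negative control and 8 miRNA arrays. The miRNAs were miR-200c, miR-21, miR-17 and let7a, each given once as a native and once as a methylated oligonucleotide. Each group had 1 array. Differences between single arrays therefore have no replicate check, and a gene's level in bulk RNA cannot tell fewer cells in S phase apart from less RNA per cell.

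DNA replication begins when the origin recognition complex, with CDC6 and CDT1, loads the MCM2 to MCM7 ring onto DNA in G1. The kinase CDC7, MCM10, CDC45 and GINS turn that ring into the active CMG helicase as S phase starts. DNA polymerases alpha, delta and epsilon then copy the strands with the PCNA clamp, which the RFC complex loads. Ribonucleotide reductase, thymidylate synthase and thymidine kinase supply the deoxynucleotides. Many of these genes are transcribed together at the boundary of G1 and S phase through E2F factors, and several carry the CCAAT box bound by NF-Y.

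The mature miRNA sequences of RefSeq (GRCh38.p14) are shown because they name what was delivered, with the seed, bases 2 to 8, in capitals. The labels give neither the arm nor the methylated base, so these are the arms that the names usually mean.
hsa-miR-200c-3p: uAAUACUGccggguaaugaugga
hsa-miR-21-5p: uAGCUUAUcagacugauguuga
hsa-let-7a-5p: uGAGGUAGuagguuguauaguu
hsa-miR-17-5p: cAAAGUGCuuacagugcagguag
No 2 of the 4 miRNAs share a seed. The genomic copies of miR-200c, miR-21 and miR-17 lie at chr12:6963742-6963764, chr17:59841273-59841294 and chr13:91350618-91350640, all on the plus strand, and let-7a has copies on chromosomes 9, 11 and 22.

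Promoters are shown because many members varied together across arrays. RefSeq promoters (GRCh38.p14), from 250 bases before to 50 after the start of the gene, matched 36 members, and the others, MCM4, MCM5, GINS4, POLD3, RPA2 and DSCC1, are named only. An E2F core, spelled TTCCCGC or TTGGCGC on either strand, lay in 25 of the 36 promoters (69.4%), against 13.9% of the 10785 promoters of other measured genes and 9.33% of all 27305 promoters. The NF-Y box, spelled CCAAT on either strand, lay in 20 of 36 (55.6%), against 36.6% and 35.7%. Both were found in 15 members (41.7%), against 5.76% of the other measured genes, and matches of the 2 motifs overlapped in 5 members and in 154 of all promoters. The 120 bases before the start of 7 members follow, 5′ to 3′ on the gene's strand, with every match to either motif in capitals.
PCNA (chr20:5126623-5126742, minus strand): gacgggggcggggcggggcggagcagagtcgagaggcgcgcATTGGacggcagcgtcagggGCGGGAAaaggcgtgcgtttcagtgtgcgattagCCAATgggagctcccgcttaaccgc
CDT1 (chr16:88803669-88803788, plus strand): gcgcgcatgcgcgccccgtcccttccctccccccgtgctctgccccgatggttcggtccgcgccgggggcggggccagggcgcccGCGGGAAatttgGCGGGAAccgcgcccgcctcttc
UHRF1 (chr19:4909381-4909500, plus strand): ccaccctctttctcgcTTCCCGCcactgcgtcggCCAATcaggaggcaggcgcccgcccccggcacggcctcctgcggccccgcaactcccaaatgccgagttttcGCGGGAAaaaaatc
TYMS (chr18:657533-657652, plus strand): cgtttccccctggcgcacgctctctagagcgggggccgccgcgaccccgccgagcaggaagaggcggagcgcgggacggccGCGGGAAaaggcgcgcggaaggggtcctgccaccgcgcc
CDC6 (chr17:40287759-40287878, plus strand): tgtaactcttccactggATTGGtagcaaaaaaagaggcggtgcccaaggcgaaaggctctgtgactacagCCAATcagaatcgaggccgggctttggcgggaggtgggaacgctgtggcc
CDC45 (chr22:19479800-19479919, plus strand): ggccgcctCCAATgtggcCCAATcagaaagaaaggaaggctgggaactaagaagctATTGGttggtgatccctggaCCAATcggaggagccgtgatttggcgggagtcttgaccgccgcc
RRM2 (chr2:10122619-10122738, plus strand): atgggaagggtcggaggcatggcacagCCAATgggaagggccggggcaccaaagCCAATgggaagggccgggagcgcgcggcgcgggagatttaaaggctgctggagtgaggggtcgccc
PCNA and UHRF1 hold both motifs in this stretch, CDT1 and TYMS the E2F core alone, and CDC6, CDC45 and RRM2 the NF-Y box alone. CDC6 also has an E2F core 8 bases past the start, outside this stretch. The stretches of CDC6 and CDC45 hold the near spelling TTGGCGG, which was not searched for. A match is a description of letters, not a bound site.

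Values below are log2 intensities after background correction and quantile normalization, and 1 unit is a 2-fold difference. The level of one probe cannot be set against that of another. The disrupted gene, DICER1, was detected on all 9 arrays at 6.25 to 6.74, and where its probe lies with respect to exon 5 is unknown, so it does not check the disruption. The epithelial genes EPCAM, KRT18 and CDH1 were detected on all 9 arrays, as were the intestinal genes CDX2 and VIL1, while KRT19 was detected on 1 array and KRT8 had no probe. Of markers of other cell types, PTPRC, COL1A1 and COL1A2 were detected on none, CDH5 on 2 and VWF on 7, whereas CD3E, CD14, DCN and PDGFRB passed the detection limit on all 9. Their part in the results was not tested.

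The labels of the let7a and miR-17 arrays went against the data. Over 16030 features outside the 42 members, centred within each form, Pearson's r across features was 0.70 within the miR-200c pair of arrays and 0.46 within the miR-21 pair. It was -0.22 within the let7a pair and -0.16 within the miR-17 pair, but 0.69 between miR-17 native and the array with the let7a methylated label. It was 0.56 between the array labelled miR-17 methylated and the let7a native one. The scanner gain slope was 0.453 on the array labelled miR-17 methylated and 0.409 or 0.41 on the other 8. These correlations are the same whether the 2 native or the 2 methylated labels are the wrong ones, so they cannot tell which arrays carry them. By these values "native" is as much in doubt as "methylated", and known targets of let7a and miR-17 were not examined here. No array was reassigned, and let7a and miR-17 arrays are named by their labels throughout. The calls of each limma contrast are also given without the 2 methylated arrays of these miRNAs and, as an alternative chosen after the data were seen, without their 2 native arrays. Each of these fits has 1 residual degree of freedom, takes its spread from the miR-200c and miR-21 pairs, and leaves let7a and miR-17 with 1 array each.

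The median range over the 9 arrays was 0.74 for the members and 0.32 for all features, without matching for brightness, and the background offset shrinks the differences of dim features. In all, 6 members spanned at least 1 log2 unit, namely MCM4 (1.08), CDC6 (1.15), CDT1 (1.002), RFC2 (1.04), CLSPN (1.38) and UHRF1 (1.57). UHRF1, which recruits the maintenance DNA methyltransferase to new DNA, was the 1 member that lay at least 2-fold from the control on any array. That array was miR-200c native (-1.16), where a second UHRF1 probe differed by only -0.55.

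The arrays fell on different sides of the control. On the miR-21 native array 32 of 42 members lay below the control (48.3% of all features did), with a median difference of -0.19. On the miR-21 methylated array 34 lay below it (47.2% of all features) and 8 above (52.7%), with a median of -0.15. On the array labelled let7a methylated 40 lay above it (52.4% of all features), with a median of 0.35, and on the miR-17 native array 39 did (54.5% of all features), with a median of 0.28. The medians over all features were 0.00 to 0.02 on every array.

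The other 4 arrays were near balance. Members above the control numbered 23 on the miR-200c native array (55.5% of all features), 23 on miR-200c methylated (54.7%), 22 on let7a native (50.6%, with 49.3% below) and, under the label miR-17 methylated, 21 (53.6%). Their medians were 0.02, 0.05, 0.01 and 0.00. All 8 differences share the 1 control array, so its own error enters each of them.

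**Figure D1:**
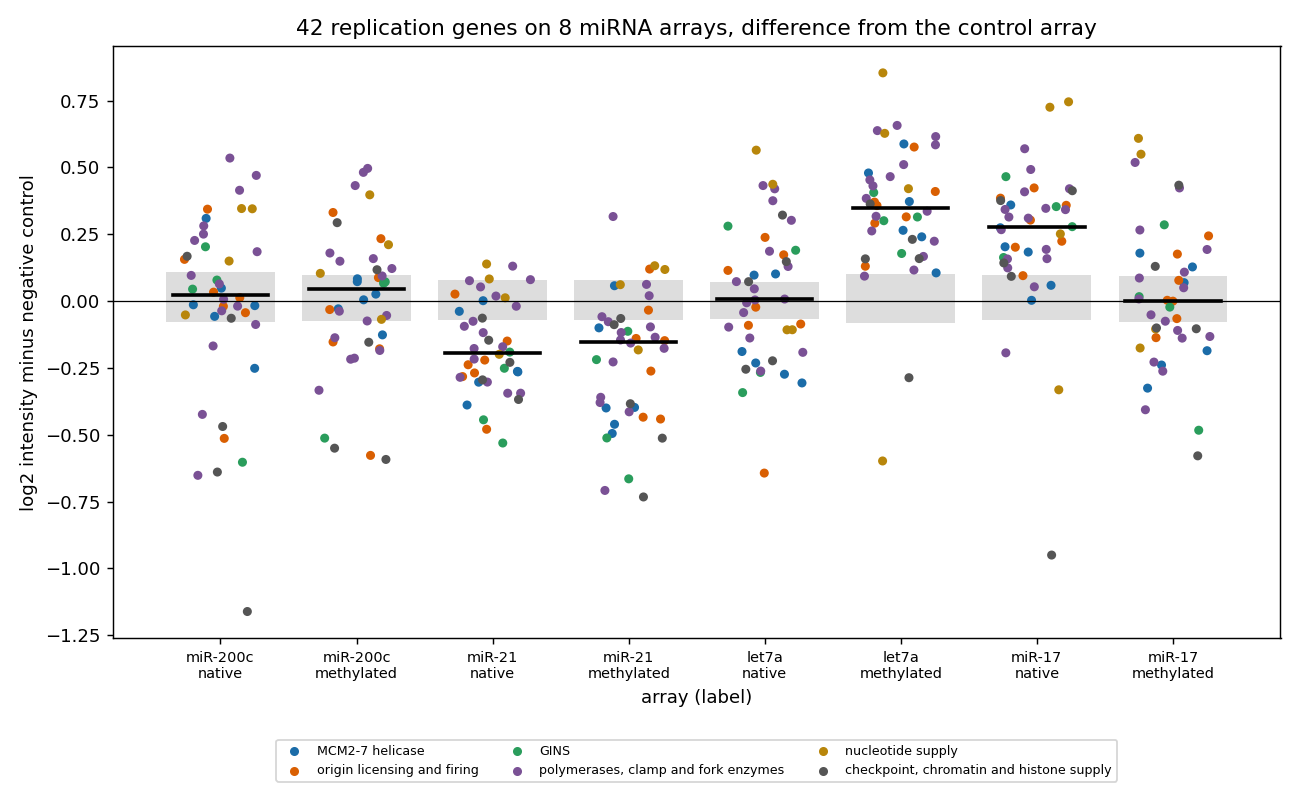
Each point is 1 of 42 replication genes, and the y axis is the log2 intensity on a miRNA array minus that on the negative control array; black bars are medians over the members and grey boxes the middle 50% of all 16072 features. The members sit low on both miR-21 arrays (medians -0.19 and -0.15) and high on miR-17 native (0.28) and the array labelled let7a methylated (0.35).

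Differences of at least 0.3 log2 units, or 1.23-fold, were also counted. Below the control by that much were 9 members on miR-21 native (3.75% of all features) and 15 on miR-21 methylated (4.57%), with 0 (3.77%) and 1 (4.21%) above. The methylated array thus had more members below by that much, though its median was nearer 0. Above it were 20 on miR-17 native (6.18%) and 26 on the array labelled let7a methylated (6.91%), with 2 (6.84%) and 1 (7.21%) below. The miR-200c native array had 7 below (8.61%) and 7 above (8.17%), its methylated partner 5 (7.93%) and 5 (7.01%), and let7a native 3 (4.96%) and 7 (5.25%). Under the label miR-17 methylated there were 4 below (5.85%) and 5 above (5.59%). The shares of all features were not matched for brightness. The median level on the control was 8.95 for members and 7.12 for all features, and the offset shrinks the differences of dim features. On miR-200c native 16.7% of members passed the cut in each direction, above the share of all features both times. The array labelled let7a methylated was the highest of the 9 for 25 members (13.9% of all features), and miR-17 native for 9 (12.8%). The lowest array was miR-21 methylated for 16 members (8.61%) and miR-21 native for 8 (6.92%).

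**Figure D2:**
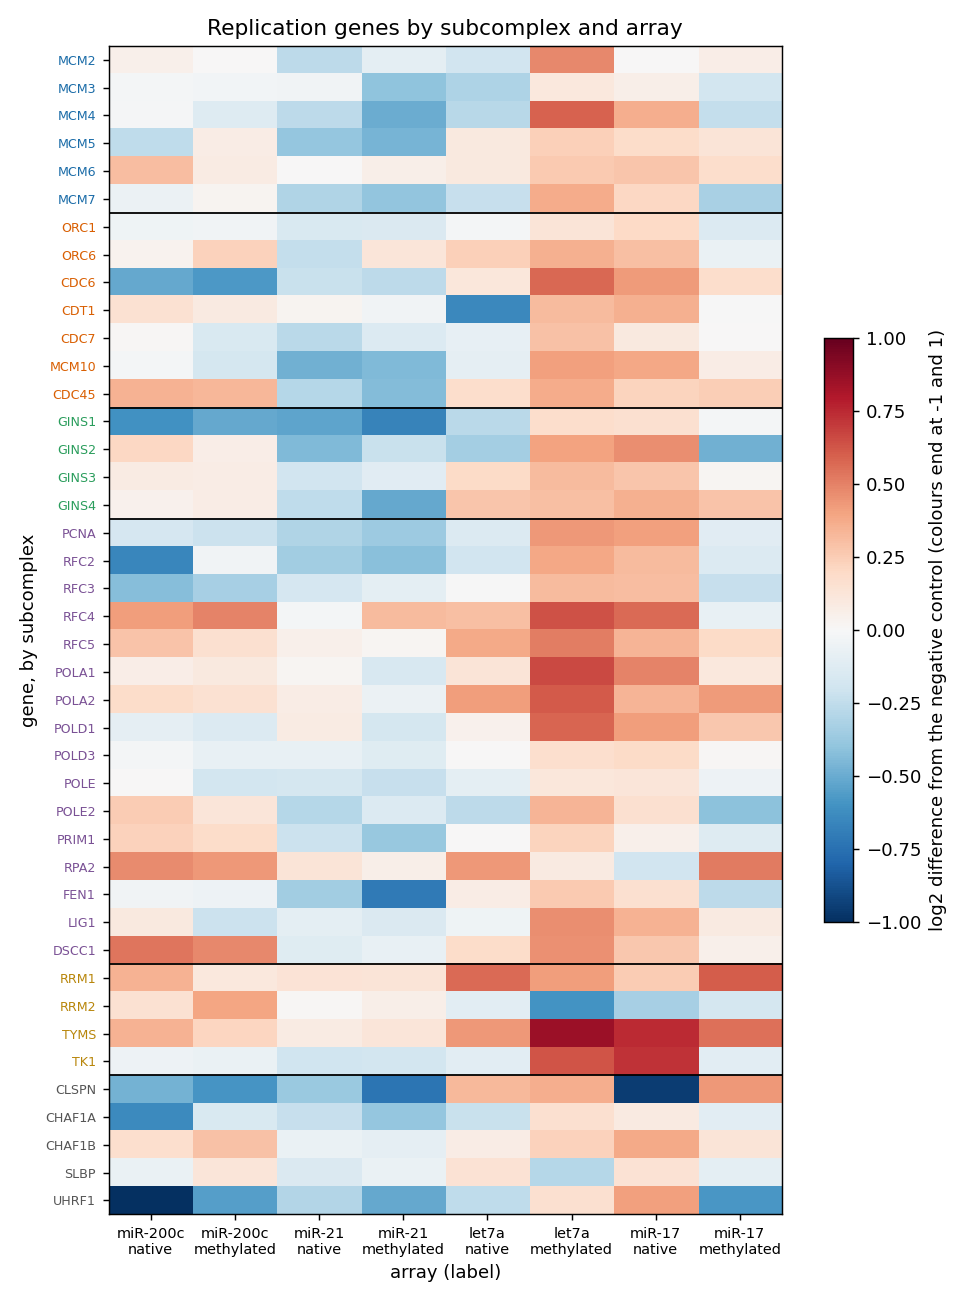
Rows are the 42 genes grouped by role and columns the 8 miRNA arrays, coloured by the log2 difference from the negative control array. The 2 miR-21 columns are mostly blue, those of miR-17 native and of the label let7a methylated mostly red, and RRM2, RPA2, SLBP and CLSPN break the pattern on one or both of these 2.

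The first test asked how the 2 arrays of a miRNA differed from the 6 arrays of the other miRNAs. For miR-21, 41 of 42 members had a lower mean than on the other arrays (49.1% of all features did), and the median difference was -0.27. RRM2 was the 1 member with a higher mean (50.9%). The 6 other arrays include miR-17 native and the array labelled let7a methylated, where the members' medians were 0.28 and 0.35 above the control. These 2 arrays raise the mean that miR-21 is set against, and each fit without 2 arrays keeps 1 of them. Against the control the members' medians were -0.19 and -0.15 on the miR-21 arrays. No member and no feature passed an adjusted p of 0.05 in limma. At an unadjusted p under 0.05, 13 members were lower (4.06% of all features) and 0 higher (3.02%), out of 1139 features in either direction. For 18 of 42 members both miR-21 arrays lay below all 6 other miRNA arrays (5.22% of all features), and for 0 both lay above (4.22%).

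CDC45, which joins MCM and GINS in the active helicase, had the largest moderated t of the members. It was at 8.22 on the control, 8.57 and 8.55 on the native and methylated miR-200c arrays, 7.94 and 7.79 on the miR-21 arrays, 8.40 and 8.59 on those labelled let7a, and 8.45 and 8.47 on those labelled miR-17. Both miR-21 arrays were below every other array, with no overlap. The difference from the other miRNAs was -0.64 (SE 0.11, limma adjusted p = 0.370).

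GINS4, a GINS subunit, was at 8.97 on the control, 9.02 and 9.05 with miR-200c, 8.72 and 8.46 with miR-21, 9.25 and 9.27 under the let7a labels, and 9.33 and 9.26 under the miR-17 labels. The miR-21 arrays were again the lowest pair, and those of miR-200c lay near the control. The difference was -0.60 (SE 0.11, limma adjusted p = 0.393). MCM5, a helicase subunit, read 9.95 on the control, 9.69 and 10.02 with miR-200c, 9.56 and 9.48 with miR-21, 10.04 and 10.19 under let7a, and 10.13 and 10.07 under miR-17. Its miR-21 arrays did not overlap the rest, though the miR-200c native array came close. The difference was -0.50 (SE 0.13, limma adjusted p = 0.478).

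The other members with both miR-21 arrays below all other miRNA arrays were MCM6, ORC1, MCM10, GINS3, PCNA, RFC5, POLA1, POLA2, POLD3, PRIM1, FEN1, DSCC1, TYMS, TK1 and CHAF1B. For some of them the control was as low. RFC5, a clamp loader subunit, was at 8.41 on the control and 8.46 and 8.43 on the miR-21 arrays, and TYMS, thymidylate synthase, at 9.96 and at 10.05 and 10.08. Against the control, 30 of 42 members were lower with both forms of miR-21 (35% of all features) and 6 higher with both (39.4%), and both differences share the 1 control array. Of the 18 members, 14 had a promoter in the table, and an E2F core lay in 8 of these (57.1%), against 17 of 22 other members (77.3%). These shares depend on the spellings searched. CDC45 and POLA2, counted here as without a core, hold the near spelling TTGGCGG before the start. The difference in shares was not tested.

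**Figure D3:**
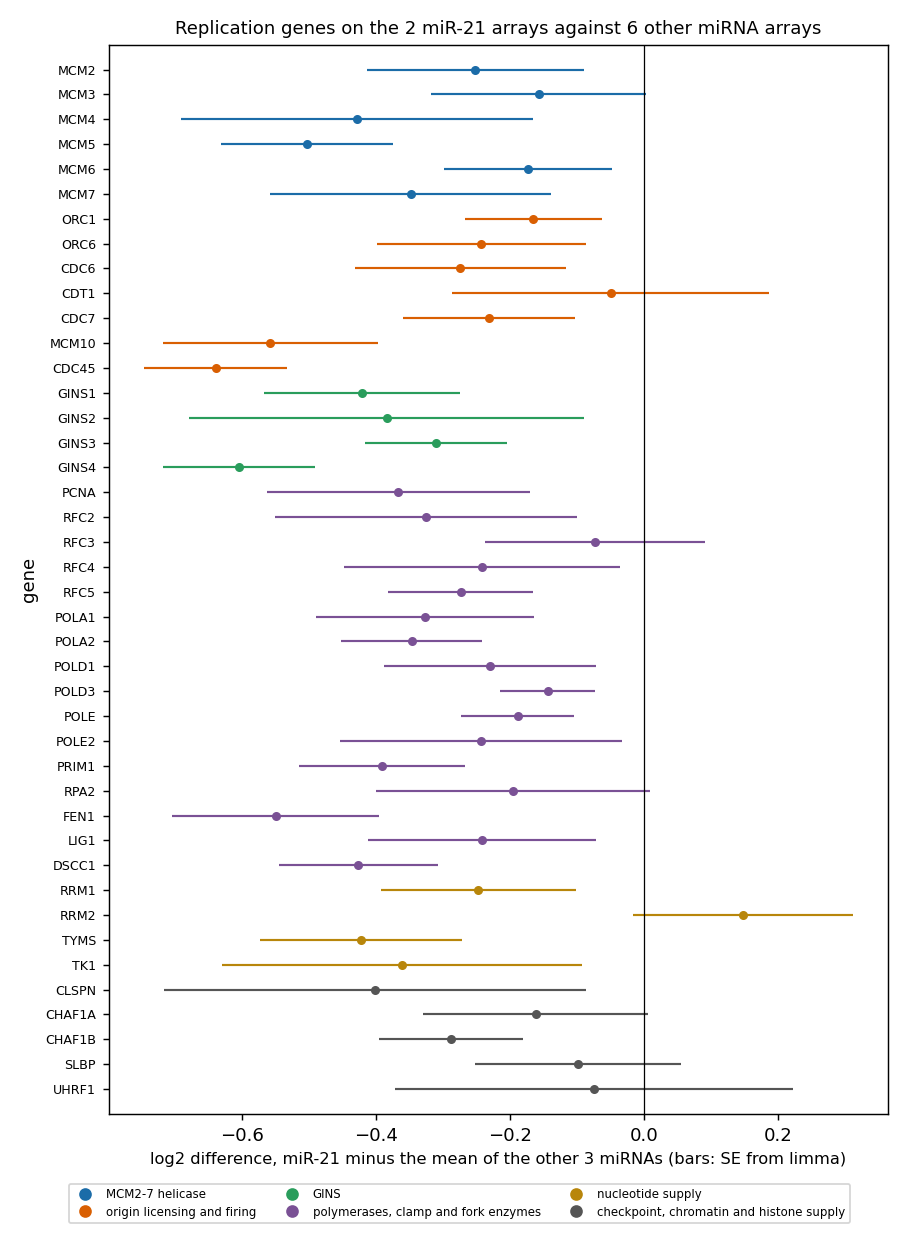
Each point is the mean of the 2 miR-21 arrays minus the mean of the 6 arrays of the other 3 miRNAs for 1 gene, in log2 units, with bars of 1 SE from limma. The points for 41 of 42 genes lie below 0, and none passed an adjusted p of 0.05.

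Without the 2 methylated arrays of let7a and miR-17 the miR-21 median was -0.26, and limma called 3 members lower and 0 higher, against 1.92% of all features called. They were CDC45 (-0.58, adjusted p = 0.0232), MCM10 (-0.51, adjusted p = 0.0313) and GINS4 (-0.57, adjusted p = 0.0431). MCM10, a scaffold needed to activate the helicase, was at 8.04 on the control and 7.56 and 7.60 on the miR-21 arrays, and at 7.86 or more on the other 6. Without the 2 native arrays instead, the median was -0.33 and limma called 10 members lower and 0 higher, against 3.56% of all features. They again included CDC45 (-0.70, adjusted p = 0.00714), MCM10 (-0.61, adjusted p = 0.0109) and GINS4 (-0.64, adjusted p = 0.0213), with CLSPN (-0.72), FEN1 (-0.58), MCM4 (-0.53), GINS1 (-0.47), DSCC1 (-0.44), POLA1 (-0.38) and POLE (-0.23).

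By role, the helicase subunits MCM2 to MCM7 all had lower means with miR-21 than with the other miRNAs, with a median of -0.30. MCM7 was at 10.59 on the control, 10.53 and 10.62 with miR-200c, 10.29 and 10.19 with miR-21, 10.36 and 10.96 under let7a, and 10.79 and 10.27 under miR-17. MCM4 read 9.82 on the control, 9.81 and 9.70, 9.56 and 9.33, 9.55 and 10.41, and 10.18 and 9.58 in the same order. For both genes the let7a native array and that labelled miR-17 methylated fell within or beside the range of the miR-21 arrays, while the array labelled let7a methylated was the highest of the 9. MCM6 differed from the other subunits in that its control value, 10.08, was the lowest of the 9, next to 10.08 and 10.14 with miR-21. All 6 subunits were above the control on miR-17 native (median 0.19) and on the array labelled let7a methylated (0.32).

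The origin factors behaved less alike. CDC6, the loader that recruits MCM with CDT1, was at 9.67 on the control, 9.16 and 9.09 with miR-200c, 9.45 and 9.41 with miR-21, 9.79 and 10.25 under let7a, and 10.10 and 9.85 under miR-17. It was lowest with miR-200c, below the control with miR-21, and above it on the 4 arrays labelled let7a or miR-17. CDT1, its partner, read 7.66 on the control, 7.82 and 7.75 with miR-200c, 7.69 and 7.63 with miR-21, 7.02 and 7.97 under let7a, and 8.02 and 7.66 under miR-17. Its let7a native array stood 0.64 below the control, and no other array was as much as 0.1 below it. ORC1, the ATPase subunit of the origin recognition complex, spanned 0.35, from 6.96 to 7.31, and ORC6, another subunit, 0.60, from 8.55 to 9.14. CDC7, the kinase that fires origins, ranged from 7.81 on miR-21 native to 8.37 on the array labelled let7a methylated. All 7 origin factors lay above the control on that array as on miR-17 native, with medians of 0.36 and 0.30.

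GINS subunits all read lower than the control with miR-21, with medians of -0.35 and -0.37. All read higher than it on miR-17 native (0.32) and on the array labelled let7a methylated (0.31). GINS2 was at 10.01 on the control, 10.21 and 10.07 with miR-200c, 9.56 and 9.79 with miR-21, 9.67 and 10.41 under let7a, and 10.47 and 9.53 under miR-17. The 4 lowest values came from both miR-21 arrays, let7a native and the one labelled miR-17 methylated. GINS1 was also below the control with miR-200c, at 8.36 and 8.45 against 8.96, where the other 3 subunits lay above it on both arrays. Its miR-21 values, 8.43 and 8.30, overlapped those of miR-200c. GINS3 varied least, between 7.54 and 8.05.

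PCNA, the sliding clamp, was at 12.21 on the control, 12.04 and 12.00 with miR-200c, 11.91 and 11.85 with miR-21, 12.07 and 12.64 under let7a, and 12.62 and 12.10 under miR-17. The miR-21 arrays were the lowest pair, and miR-17 native and the array labelled let7a methylated stood apart at the top. FEN1, which removes Okazaki flaps, read 10.20 on the control and 9.85 and 9.49 with miR-21, and 9.94 or more on the other 6 miRNA arrays. LIG1, which seals Okazaki fragments, lay between 7.91 on miR-200c methylated and 8.60 on the array labelled let7a methylated.

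The polymerase subunits differed in range and in direction. On let7a native, POLA2 was 0.42 above the control and POLE2 at -0.26 from it. POLA1, the catalytic subunit of polymerase alpha, was at 6.85 on the control and 7.51 on the array labelled let7a methylated, the highest of its 9 values, with 6.70 on miR-21 methylated the lowest. POLA2, its partner, spanned 7.92 to 8.60, POLD1, the catalytic subunit of polymerase delta, 7.34 to 8.10, and POLE2, of polymerase epsilon, 8.15 to 8.90. POLD3 and POLE spanned only 0.31 and 0.35, at levels near 6.5 to 6.8, where the background offset shrinks differences. PRIM1, the primase subunit that starts each new strand, was lowest with miR-21, at 8.87 and 8.71, and 8.95 or more elsewhere. The 16 polymerase, clamp and fork genes were all above the control on the array labelled let7a methylated (median 0.41), and 15 were on miR-17 native (0.31).

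RPA2, a subunit of the single-strand binding protein RPA, was the exception. It was at 9.86 on the control, 10.33 and 10.29 with miR-200c, 9.99 and 9.92 with miR-21, 10.29 and 9.95 under let7a, and 9.66 and 10.38 under miR-17. Its values on let7a native and under the label miR-17 methylated were among the 4 highest, and miR-17 native was the lowest.

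Clamp loader subunits split. RFC2 ranged from 8.93 on miR-200c native to 9.97 on the array labelled let7a methylated, but read 9.54 on miR-200c methylated. RFC3 was lowest with miR-200c, at 7.47 and 7.56, against 7.90 on the control and 7.67 or more on the other miRNA arrays. RFC4 was above the control with miR-200c by 0.41 and 0.50 and on the array labelled let7a methylated by 0.64. DSCC1, part of the alternative loader that works in sister chromatid cohesion, was at 8.02 on the control, 8.56 and 8.50 with miR-200c, 7.90 and 7.94 with miR-21, 8.21 and 8.47 under let7a, and 8.29 and 8.07 under miR-17. Its miR-200c arrays were the 2 highest and its miR-21 arrays the 2 lowest of the 9.

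The 4 nucleotide supply genes did not vary as a set. TK1, the S phase thymidine kinase, was at 10.14 on the control, 10.08 and 10.07 with miR-200c, 9.94 and 9.95 with miR-21, 10.03 and 10.76 under let7a, and 10.86 and 10.03 under miR-17. The miR-17 native array and that labelled let7a methylated stood above all others by 0.6 or more, and the other 7 lay close together. TYMS, by contrast, was lowest on the control at 9.96, and read 10.31 and 10.18 with miR-200c, 10.40 and 10.82 under let7a, and 10.71 and 10.51 under miR-17. Its second probe gave the same sign on all arrays except miR-21 native, where it was 0.07 below the control.

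RRM1 and RRM2, the large and small subunits of ribonucleotide reductase, went separate ways. RRM2 was at 11.41 on the control, 11.56 and 11.81 with miR-200c, 11.42 and 11.47 with miR-21, 11.30 and 10.81 under let7a, and 11.08 and 11.23 under miR-17. It was lowest on the array labelled let7a methylated, where TYMS, PCNA and 23 other members were at their highest. A second, dim RRM2 probe, at 6.41 on the control, stayed within 0.13 of it on every array, so the probes disagree on size. On most arrays they also differed in sign. This held wherever the label was miR-200c or miR-21, and for miR-17 native. It held too under the label let7a methylated, where the second probe was 0.05 above the control and the first 0.60 below. RRM1 was lowest on the control at 10.77 and highest on the array labelled miR-17 methylated, at 11.37, next to let7a native at 11.33.

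**Figure D4:**
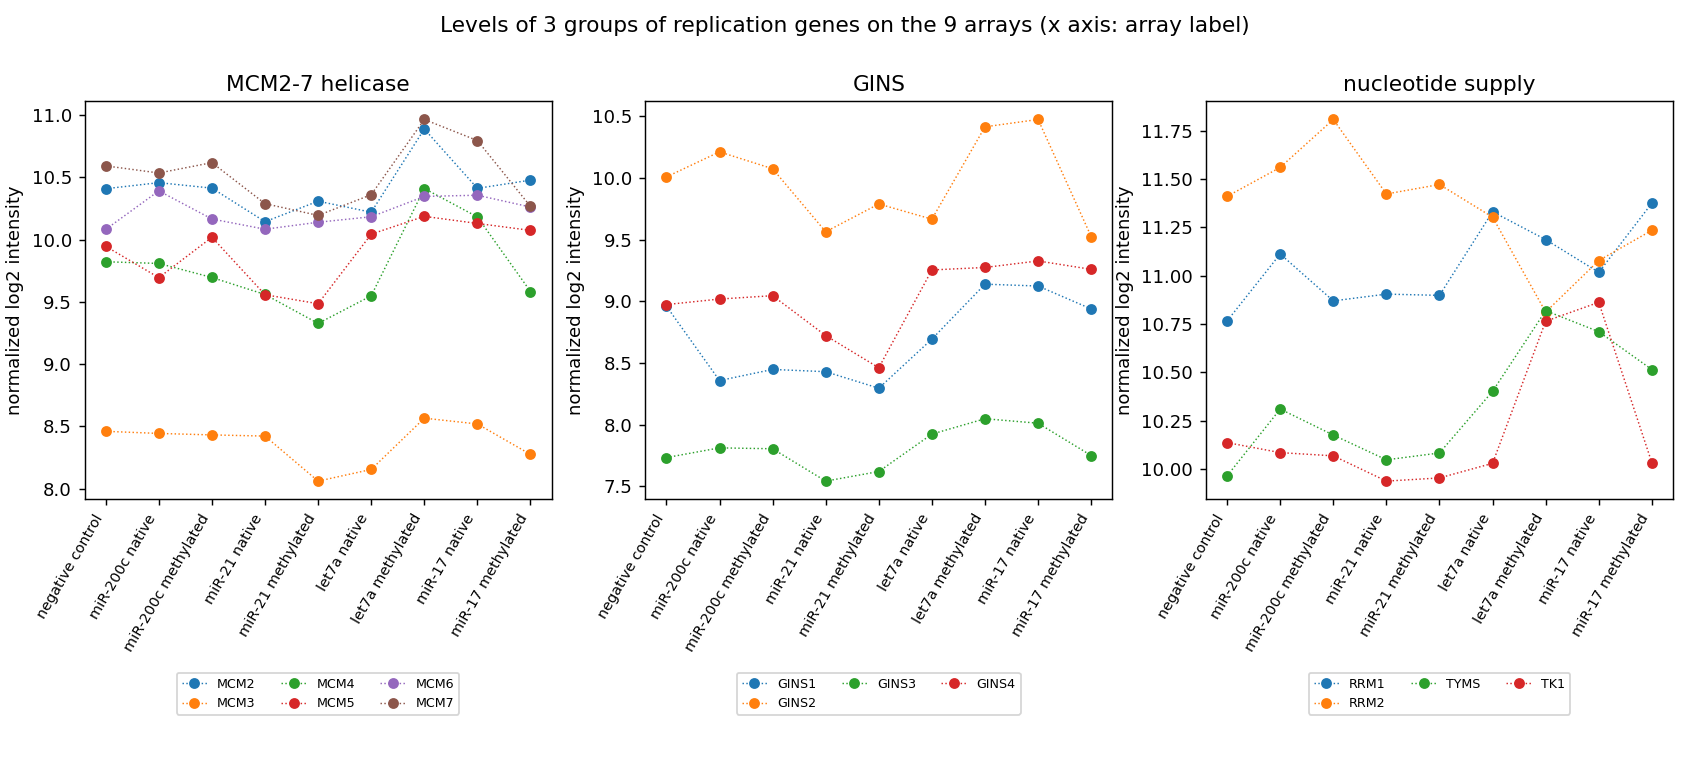
Normalized log2 intensity of each gene on the 9 arrays for the MCM helicase, GINS and nucleotide supply groups; dotted lines join the values of 1 gene and imply no order, and levels of different genes cannot be compared. RRM2 is lowest on the array labelled let7a methylated (10.81), where TYMS reaches 10.82 and TK1 10.76.

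UHRF1 was at 9.81 on the control, 8.64 and 9.26 with miR-200c, 9.51 and 9.29 with miR-21, 9.55 and 9.96 under let7a, and 10.22 and 9.23 under miR-17. The miR-200c native array was the lowest, and miR-17 native and the array labelled let7a methylated were above the control. A second UHRF1 probe had the same sign on 7 of 8 arrays and the opposite on miR-21 native, where it was 0.23 above the control. CLSPN, the claspin adaptor of the replication checkpoint, read 8.35 on the control, 7.88 and 7.76 with miR-200c, 7.98 and 7.62 with miR-21, 8.67 and 8.71 under let7a, and 7.40 and 8.78 under miR-17. It was below the control on 5 arrays and lowest on miR-17 native. Its second probe had the same sign on 7 of 8 arrays, but on let7a native it was 0.42 below the control where the first was 0.32 above.

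CHAF1A and CHAF1B, the subunits of the histone chaperone CAF-1, differed in that CHAF1A was below the control on 6 arrays, by 0.64 on miR-200c native, and CHAF1B on 2. SLBP, which binds the stem-loop of histone mRNA, had a narrow range, from 9.87 on the array labelled let7a methylated to 10.30 on let7a native. It was thus lowest where most members were highest.

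For miR-200c against the other miRNAs, members were spread around 0, with a median of -0.02 and 25 of 42 lower (46.3% of all features) and 17 higher (53.7%). No member passed the threshold, whereas 3.1% of all features did (498). At an unadjusted p under 0.05 there were 3 lower members (9.05% of all features) and 3 higher (8.5%). The 3 with the largest moderated t were CDC6 (-0.68, SE 0.16, limma adjusted p = 0.0782), DSCC1 (0.38, SE 0.12, adjusted p = 0.164) and RRM2 (0.46, SE 0.16, adjusted p = 0.209). Both miR-200c arrays lay below the other 6 miRNA arrays for CDC6 and RFC3 (11.4% of all features) and above them for DSCC1 and RRM2 (12.1%). The call for CDC6 depended on single arrays, since its adjusted p was 0.0241 without let7a native and 0.0484 without the array labelled miR-17 methylated. RRM2 passed without let7a native (adjusted p = 0.0482), but its difference was 0.20 over the mean of its 2 probes.

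Without the 2 methylated arrays of let7a and miR-17, 14.9% of all features and 5 members passed for miR-200c. CDC6 (-0.63, adjusted p = 0.00574), RFC3 (-0.46, adjusted p = 0.00652) and UHRF1 (-0.84, adjusted p = 0.00747) were lower. DSCC1 (0.39, adjusted p = 0.0257) and CDC45 (0.35, adjusted p = 0.0448) were higher. The share of members called, 11.9%, was below that of all features. Without the 2 native arrays, 7 members (16.7%) and 15.2% of all features passed. CDC6 (-0.73, adjusted p = 0.00259), CLSPN (-0.69), POLD1 (-0.43), GINS1 (-0.42) and RFC3 (-0.34) were lower, and RRM2 (0.57) and DSCC1 (0.37) higher. CDC6, RFC3 and DSCC1 were called in both fits, whereas UHRF1 was not called in the second (-0.52, adjusted p = 0.0674).

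For let7a, 39 of 42 members had a higher mean than with the other miRNAs (44.4% of all features), with a median of 0.22. No member or feature passed the threshold in limma, and 6 members (4.1% of all features) were higher and 0 lower (2.31%) at an unadjusted p under 0.05, out of 1030 features in either direction. CDC6 (0.51, SE 0.16, limma adjusted p = 0.667), POLA2 (0.33, SE 0.11, adjusted p = 0.668) and GINS4 (0.29, SE 0.11, adjusted p = 0.757) had the largest moderated t. RFC5 was the 1 member with both let7a arrays above the other 6 (2.21% of all features). The median rested on 1 array, since it was -0.02 without the array labelled let7a methylated and 0.39 without let7a native. Without the 2 methylated arrays the contrast rests on let7a native alone, and limma called CDT1 lower (-0.82, adjusted p = 0.00351) and CLSPN higher (0.92, adjusted p = 0.00378), against 3.27% of all features. The second CLSPN probe had the opposite sign on let7a native, as given above. Without the 2 native arrays it rests on the array labelled let7a methylated alone, and limma called 16 members higher and 1 lower, against 8.57% of all features. The higher ones were MCM4 (0.87), CDC6 (0.80), TK1 (0.75), CLSPN (0.66), PCNA (0.66), POLA1 (0.64), GINS2 (0.62), MCM7 (0.61), FEN1 (0.60), POLD1 (0.60), MCM10 (0.59), GINS1 (0.58), LIG1 (0.56), RFC3 (0.54), POLE (0.27) and POLD3 (0.23), and RRM2 (-0.69) was lower. The second, dim RRM2 probe was 0.05 above the control on that array, where the first was 0.60 below.

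For miR-17, 34 of 42 members had a higher mean (51.7% of all features), with a median of 0.14. No member or feature passed the threshold, and 3 members (3.3% of all features) were higher and 0 lower (2.82%) at an unadjusted p under 0.05, out of 984 features in either direction. GINS1 (0.47, SE 0.15, limma adjusted p = 0.796), GINS4 (0.33, SE 0.11, adjusted p = 0.812) and CDC6 (0.45, SE 0.16, adjusted p = 0.812) led. The median was -0.05 without miR-17 native and 0.30 without the array labelled miR-17 methylated.

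Without the 2 methylated arrays the miR-17 contrast is that of the native array alone, and limma called 10 members higher and 1 lower, against 6.52% of all features called. TK1 (0.84), UHRF1 (0.98), GINS2 (0.66), GINS1 (0.63), CDC6 (0.63), PCNA (0.61), MCM10 (0.58), CDT1 (0.51), RFC3 (0.51) and POLA1 (0.42) were higher, and CLSPN (-0.78, adjusted p = 0.00551) was lower. Without the 2 native arrays it is that of the array labelled miR-17 methylated, and 1 member, CLSPN, was called, with the opposite sign (0.75, adjusted p = 0.0129), against 3.29% of all features. The members called for let7a and miR-17 therefore depended on which form was kept.

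Methylated and native arrays were compared over the 4 miRNAs, with the miRNA as the block of each pair. The members' median was 0.00, with 21 lower (51.5% of all features) and 21 higher, and no member or other feature passed. At an unadjusted p under 0.05 there were 0 members in either direction, against 0.187% of all features lower and 0.485% higher, or 108 in all. MCM2 (0.21, SE 0.14), FEN1 (-0.15, SE 0.13) and CHAF1A (0.13, SE 0.15) had the largest moderated t, each with a limma adjusted p of 0.99998. With median scaling 10 members were lower, and 11 lay below the median of all features, against 20 here. With the authors' deposited values 1 member was lower, but all features were shifted by 0.14, and 22 members lay below that shift.

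Pair by pair, the members' median of methylated minus native was -0.04 for miR-200c, with 27 of 42 lower (54.8% of all features), and -0.05 for miR-21, with 26 lower (49.6%). It was 0.33 under the let7a labels, with 38 higher (51.9%), and -0.24 under the miR-17 labels, with 35 lower (50.9%). The let7a and miR-17 pairs thus ran in opposite directions for most members. GINS2 differed by 0.75 in the let7a pair and -0.95 in the miR-17 pair, and TK1 by 0.73 and -0.83. CLSPN ran the other way in the miR-17 pair, by 1.38, and stood at 0.04 in the let7a pair. Both pairs hold arrays whose labels are in doubt. The other pairs, miR-200c and miR-21, decide the contrast when either form of let7a and miR-17 is left out. They gave a median over both of -0.05, with 0 members called in limma and 0.0187% of all features.

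**Figure D5:**
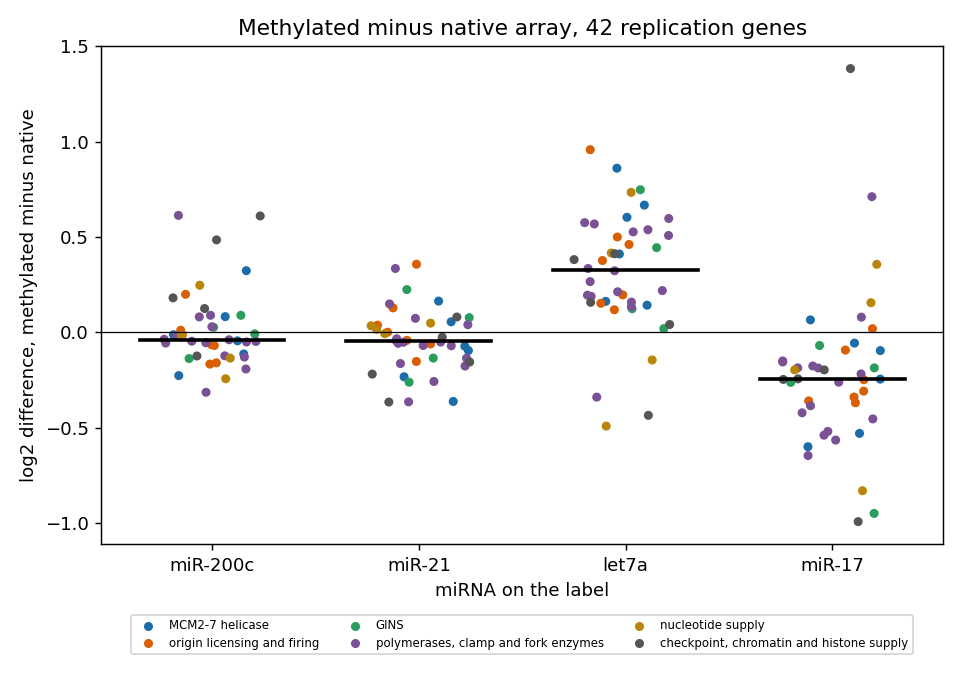
Each point is the log2 intensity on the methylated array minus that on the native array for 1 of 42 genes, by the miRNA on the label, with black bars at the median. The medians are near 0 for miR-200c (-0.04) and miR-21 (-0.05), at 0.33 for let7a and at -0.24 for miR-17.

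The mean of the 8 miRNA arrays did not set the members apart from the control. The median was -0.02, with 22 lower (47% of all features) and 20 higher (53%), and no member or feature passed. At an unadjusted p under 0.05 there were 0 members in either direction, against 1.85% of all features lower and 1.98% higher, or 617 in all. TYMS (0.42, SE 0.20), POLA2 (0.27, SE 0.14) and RFC5 (0.24, SE 0.14) led, each with a limma adjusted p of 0.9997. There were 4 members, MCM6, RFC5, RRM1 and TYMS, with their lowest value on the control array (11.3% of all features). Passing without the 2 methylated arrays of let7a and miR-17 were 0.834% of all features and 0 members, and without their 2 native arrays 0.971% and 0.

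Of 48 other replication and S phase genes, 47 were measured. Their medians against the control were -0.10 on both miR-21 arrays, 0.16 on miR-17 native and 0.22 on the array labelled let7a methylated, and in the miR-21 contrast 45 of 47 were lower, with a median of -0.19. CDK2, the kinase that drives S phase with cyclins E and A, and MCM8, a helicase related to MCM2 to MCM7, were the 2 that passed the threshold with all 8 miRNA arrays in any contrast, both for miR-200c, where 3.1% of all features passed. CDK2 was at 9.70 on the control and below it by 0.66 and 0.57 with miR-200c, and above it by 0.21 to 0.50 on the other 6. Its miR-200c arrays overlapped none of the others, and it fell by 0.97 against the other miRNAs (SE 0.11, limma adjusted p = 0.0129). The adjusted p was 0.272 without miR-200c native, 0.190 without its methylated partner, and 0.0826 and 0.0884 without miR-21 native and methylated. MCM8 was at 8.19 on the control, below it by 0.47 and 0.51 with miR-200c and by 0.19 and 0.29 with miR-21, and above it by 0.08 to 0.36 on the other 4 arrays. It fell by 0.55 with miR-200c (SE 0.11, limma adjusted p = 0.0493). It no longer passed without any 1 of the miR-200c arrays (adjusted p = 0.472 and 0.443), the miR-21 arrays (0.197 and 0.167) or miR-17 native (0.0558), or over the mean of its probes (-0.42, adjusted p = 0.141).

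More of the 47 passed without the 2 methylated arrays of let7a and miR-17. For miR-200c, CDK2 (-1.01, adjusted p = 0.00040), CCNA2 (-0.65) and MCM8 (-0.53) were lower and RPA3 (0.62) and CDC25A (0.37) higher, where 14.9% of all features passed. For miR-21, DTL (-0.55, adjusted p = 0.0174) was lower (1.92%), and for let7a, RRM2B (0.62, adjusted p = 0.0266) was higher (3.27%). For miR-17, CCNA2 (1.05), TIMELESS (0.79), GMNN (0.65), MTBP (0.61), RECQL4 (0.55), ATAD5 (0.51) and DTL (0.51) were higher and CCNE1 (-0.71) lower (6.52%). Without the 2 native arrays, limma called 7 lower and 3 higher for miR-200c, 1 lower for miR-21, 8 higher for let7a, and 2 lower and 2 higher for miR-17. The shares of all features called without the native arrays are those given above beside the members. None of the 47 passed for methylated against native or for the control in either fit. Cyclin A2, CCNA2, which works with CDK2 in S phase, was called higher for let7a without the native arrays (1.01) and for miR-17 without the methylated ones.

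Mitosis genes, which peak later in the cell cycle, are given for comparison. Of 38 listed, 37 were measured, and in the miR-21 contrast 36 were lower, with a median of -0.32. Their medians against the control were -0.25 and -0.26 on the miR-21 arrays, 0.24 on miR-17 native and 0.28 on the array labelled let7a methylated. Unlike the 42 members, with a median of 0.01 on let7a native, they had a median of 0.20 there, with 30 of 37 above the control. The other 47 replication genes also lay high on let7a native, with a median of 0.09 and 34 of 47 above (50.6% of all features). On the miR-200c arrays the medians of the mitosis genes were -0.17 and -0.16, where those of the 42 members were 0.02 and 0.05. Without the 2 methylated arrays of let7a and miR-17, limma called 8 of 37 lower for miR-200c (median -0.20), 9 lower for miR-21 (-0.32), 3 higher for let7a (0.31), and 5 higher and 1 lower for miR-17 (0.33). Without their 2 native arrays it called 6 lower for miR-200c (-0.18), 8 lower for miR-21 (-0.26), 12 higher for let7a (0.37) and 1 lower for miR-17 (0.19). None was called for methylated against native or for the control. The shares of all features called are those given above, and the difference between the lists was not tested.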

How the data were processed

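Each scanner file deposited by the authors holds the raw median intensity of 27456 spots at 635 nm, before any background subtraction, per the file headers. The authors also deposited a table of processed intensity values on a linear scale. Its making is not described in the labels or headers, and it served only as an alternative. The members and gene lists were chosen with earlier results of these data known.

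Intensities were background corrected (limma 3.58.1 in R 4.3.3, normexp, offset 50), quantile normalized over 9 arrays and put on a log2 scale. The platform annotation gave 1 gene symbol for 20236 of 24460 probes and none or several for 4224. Symbols were updated for 2899 probes through a GRCh38.p14 gene table used for names, and 99 kept an old name. Control spots were left out, as were 9 probes that carried an outlier mark. Of the rest, 17684 exceeded the blank spots (2680 per array, mean plus 2 SD) on at least 5 of 9 arrays and were kept, and the brightest stood for a gene, giving 16072 features. CLSPN, RRM2, TYMS and UHRF1 had another probe. Blank means were 31.4 to 46.8, and 69.4% to 78.2% of probes were detected per array. The number of arrays limits the precision.

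The test was a limma fit to the 8 miRNA arrays with additive terms for miRNA and form (intensity trend, 3 residual degrees of freedom), with Benjamini-Hochberg adjustment over all features and a threshold of 0.05. The control contrast used all 9 arrays and assumes that the control varies like the others. Separate cultures are not stated in the labels, and p-values then measure the spread between these arrays alone. That spread is what the miRNA and form terms leave over. It therefore includes the disagreement within the let7a and miR-17 pairs, whose labels are in doubt, and the absence of calls in these fits is read with that limit. Full statistics are given for members past the threshold, or else for the 3 with the largest moderated t, and for other replication genes past it. The fit was tested on simulated data. Alternatives were median scaling, blank subtraction with a floor of 1, an offset of 16, other detection filters, the mean of a gene's probes, the authors' deposited intensity values, no intensity trend, and leaving out each array or both methylated arrays of let7a and miR-17. Leaving out both native arrays of these miRNAs was added after seeing the data. Promoter and miRNA sequences are RefSeq's.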

Additional observations from a re-analysis of the deposited data

Results flagged for a closer look

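The members' median of methylated minus native was 0.33 under the let7a labels and -0.24 under the miR-17 labels, where it was -0.04 and -0.05 for the other 2 miRNAs. The differences between methylated and native arrays thus had opposite signs in 2 pairs. Each pair has 1 array of each form, so the difference between the pairs was not tested. Both pairs hold arrays whose labels went against the data outside the members, and the part of the labels in this difference cannot be told apart from that of the miRNA.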

How the results depend on the processing

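The members' medians in the 6 contrasts and against the control mostly moved by less than 0.16. That is the residual SD of the members' median over the 8 miRNA arrays, after terms for miRNA and form. It includes the let7a and miR-17 arrays whose labels are in doubt. It is larger than some of the medians it judges, such as 0.14 in the miR-17 contrast. A smaller move can therefore still take such a median to 0. Under the authors' deposited values the miR-21 contrast had a median of -0.45 over members and -0.12 over all features, a difference of -0.34 between them. There the medians minus control were 0.51 on miR-200c methylated and 0.52 on miR-17 native, where all features stood at 0.54 and 0.25. Features past the threshold then numbered 322 for miR-200c, 31 for miR-21, 3 for let7a, 10 for miR-17, 12 for methylated minus native and 6 for the 8 arrays against the control. An offset of 16 gave 1 for miR-21, no filter gave 9 for the 8 arrays against the control, and no intensity trend gave 277 for miR-200c. Without the array labelled miR-17 methylated and that labelled let7a methylated they numbered 2387, 309, 525, 1048, 3 and 134 in the same order of contrasts, and members past the threshold 5 for miR-200c, 3 for miR-21, 2 for let7a and 11 for miR-17. The let7a median was then -0.022 and the miR-17 median 0.30. Without the native arrays of let7a and miR-17, an alternative chosen after seeing the data, features numbered 2450, 572, 1378, 528, 3 and 156, and members 7 for miR-200c, 10 for miR-21, 17 for let7a and 1 for miR-17, with medians of 0.39 for let7a and -0.048 for miR-17. Leaving out 1 array gave 2 to 912 features for miR-200c (912 without let7a native, 2 and 5 without miR-200c native and methylated, and 7 without each miR-21 array in turn), 0 to 1 for miR-21 and 0 to 2 for miR-17. Members past the threshold for miR-200c were 0 to 3, with 3 without let7a native, 2 without the array labelled miR-17 methylated and 1 without miR-17 native. The let7a median was -0.022 to 0.39, the miR-17 median -0.048 to 0.30 and the miR-21 median -0.36 to -0.21. The cause was not tested. MCM8 in the miR-200c contrast also missed the threshold with no filter (adjusted p = 0.0567), no intensity trend (0.0597) and the authors' values (0.478). Direction was checked against the main fit for the 3 members with the largest moderated t per contrast, and for CDK2 and MCM8. None of these reversed. CLSPN in the miR-17 contrast was not among them, and its sign differed between the fits without the methylated and without the native arrays. Of the counts and medians under the alternatives, 327 stayed close to the main fit and 53 moved. Counts of 0 in both were taken as close, so the 327 say little about small medians or empty counts. For the checked genes, 13 calls were lost and 15 gained. The contrast of methylated and native arrays is paired by miRNA, and the labels give no replicate numbers for a further block. Differences of dim probes such as those of POLE and POLD3 are compressed by the offset.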
